A study of Homo sapiens with 24 samples.

Results

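The mitochondrial ribosomal protein genes were followed through RNA-seq libraries of 2 human kidney cell lines in which the histone demethylase KDM5C, the transcription factor YY1 or both had been depleted by short hairpins. The genes were taken by name: protein-coding genes on the primary chromosomes whose symbol is MRPL or MRPS followed by a number, with or without a final A or B. The rule found 77 of the 60675 genes in the count tables, 49 with large-subunit names (MRPL) and 28 with small-subunit names (MRPS), spread over 21 chromosomes. ACHN is a renal cancer cell line and HK2 is a line of proximal tubule epithelial cells. Each line was sequenced in 4 groups of 3 libraries, which makes 24 libraries in 8 groups: a control hairpin (shNC), a hairpin against KDM5C (shKDM5C), a hairpin against YY1 (shYY1) and both hairpins (Dsh). All groups, the controls included, were stable pools of cells carrying a lentiviral hairpin vector and selected with puromycin. The Dsh cells were made by infecting shYY1 cells with a second, GFP-labelled KDM5C hairpin construct. Which hairpin of each gene served for the sequenced pools is not given in the sources used here, and 1 pool stands for each condition in each line. No age, time point or drug dose applies to these groups. The labels number the libraries of a group as repeats and do not call them separate cultures, so p-values measure the spread between these libraries, which may be technical.

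The mitochondrial ribosome makes the few proteins that the mitochondrial genome encodes, all of them subunits of the respiratory chain and of ATP synthase. Its rRNAs come from the mitochondrial genome, while each of its proteins is encoded in the nucleus, made in the cytosol and imported. About the same proteins are needed in each particle, so the genes are often studied as a set. Part of them descend from bacterial ribosomal proteins and the rest are additions of the mitochondrial particle. Of the 77 genes, 47 were placed in the class with bacterial homologues and 29 in the mitochondria-specific class. MRPS36 was placed in neither, since the protein is now regarded as a subunit of the oxoglutarate dehydrogenase complex. Names do not always give the subunit: the products of MRPS30 and MRPS18A sit in the large subunit. YY1 is a zinc-finger factor whose binding motif has the core CCAT (ATGG on the other strand), and nuclear genes of mitochondrial function are among its known targets. KDM5C removes methyl groups from lysine 4 of histone H3.

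The sequence at the start of these genes is shown first, because the motif of one of the depleted factors lies there in many of them. RefSeq windows of GRCh38.p14 from 250 bases before to 50 bases after the transcription start could be matched to 68 of the 77 genes, and 9 had no window. The letters AANATGGC were found on either strand in 25 of the 68 windows (36.8%, 95% Wilson interval 26.3 to 48.6), against 6.82% of all 27305 windows and 7.92% of the 15842 windows of protein-coding genes. In 22 genes (32.4%) a match lay downstream of the start on the gene's own strand, against 3.45% of protein-coding windows. The first letter of these matches stood between position 7 and position 36 from the start, with a median of 15.5. In 18 of them the ATG inside the match was an annotated start codon, so the letters overlap the context of translation initiation, and a match is a description of the sequence, not a binding site. The windows below, of 30 bases each, belong to genes described in the results and carry the match in capitals.
MRPL1: ccggagtgcccAACATGGCggcggccgtaa
MRPL45: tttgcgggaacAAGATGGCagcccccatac
MRPL51: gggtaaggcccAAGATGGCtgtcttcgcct
MRPS10: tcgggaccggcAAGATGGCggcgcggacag
MRPS18A: gtaggtttttgAAGATGGCggccctcaagg
MRPS18B: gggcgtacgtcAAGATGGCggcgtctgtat
MRPS30: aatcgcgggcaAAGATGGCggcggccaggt

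Each is written 5′ to 3′ on the strand of its gene. The MRPL1 window is chr4:77862835-77862864 on the plus strand and the MRPS30 window is chr5:44808949-44808978 on the plus strand. MRPL45 was read at chr17:38297170-38297199, plus strand, and MRPL51 at chr12:6493223-6493252, minus strand. MRPS10 was read at chr6:42217834-42217863 and MRPS18A at chr6:43687764-43687793, both on the minus strand, and MRPS18B at chr6:30617852-30617881 on the plus strand. The ATG of the match is an annotated start codon in MRPL1, MRPL45, MRPS10, MRPS18A, MRPS18B and MRPS30, and not in MRPL51. Letters of the ETS family motif CCGGAAG, which GABP binds, were in 28 windows (41.2%, interval 30.3 to 53) against 14.2% of protein-coding windows. The NRF1 letters GCGCATGCG were in 2 windows (2.94%, interval 0.81 to 10.1) against 2.76%. Both the YY1 and the ETS letters were present in 8 windows and neither in 23, and the YY1 letters can overlap the last letters of the ETS motif, since both may hold AAG. A further shared feature is that 18 of the 77 genes (23.4%) start head to head with a protein-coding gene on the opposite strand. The start of that partner lay at most 1000 bases upstream, or overlapped by at most 200 bases. Such a partner was found for 8.73% of all protein-coding genes and 11.1% of those with a mean of at least 10 counts per library.

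Library totals ranged from 15926561 to 24272298 counts, and the 77 genes took 0.224 to 0.358% of them. No gene had a count of 0 in any library. The mean count per library ranged from 12.4 (MRPS24) to 2252.7 with a median of 657.3, and only 3 genes were under 100, so counting error was small for most. KDM5C was at 60.2% of its shNC level in ACHN shKDM5C, 57.6% in ACHN Dsh, 29.9% in HK2 shKDM5C and 35.7% in HK2 Dsh. YY1 was at 54.4% in ACHN shYY1, 70.1% in ACHN Dsh, 30.7% in HK2 shYY1 and 35.7% in HK2 Dsh, so each hairpin lowered its target in the libraries that carry it, less in ACHN than in HK2. HK2 shKDM5C replicate 1 stood apart: mitochondrial-genome transcripts took 11.8% of its counts against 5.13 and 5.28% in the other 2 libraries of its group, and the 77 genes took 0.224% against 0.297 and 0.29%. The counts, medians and named genes of the comparisons that use this library are therefore given with and without it. The 7 renal epithelial markers summed to between 1866 and 3022 CPM in ACHN and between 2092 and 3992 CPM in HK2, with CDH6 near 0 in ACHN (0.33 CPM in shNC). The 4 leukocyte markers summed to at most 0.413 CPM and the 3 endothelial markers to at most 1.75 CPM in any library. Of the 3 fibroblast markers COL3A1 was near 0 throughout, but the list summed to between 576 and 626 CPM in ACHN shNC and to between 72.8 and 193.5 CPM in the ACHN knockdown libraries, the rest being COL1A1 and PDGFRB, and the part of such cells in any result was not tested. These are bulk libraries, in which fewer expressing cells and less RNA per cell cannot be told apart.

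Before any knockdown the 77 genes covered a wide range of levels. In TPM (counts per base of exon scaled to the same total in every library), 13 genes were at 100 or more in ACHN shNC, 60 between 10 and 100, and 4 under 10, and the same 3 counts were found in HK2 shNC. MRPS34, a mitochondria-specific small-subunit protein, was highest in both lines, at 311.3 ± 0.494 TPM in ACHN and 240.5 ± 18.2 TPM in HK2 (SD, n = 3). It was followed in ACHN by MRPL51 at 177.1 ± 4.99 and MRPL14 at 161.8 ± 8.79 TPM, and in HK2 by MRPL37 at 191.8 ± 7.4 and MRPL14 at 183.5 ± 4.82 TPM. At the low end stood MRPL46 (4.31 ± 0.39 and 3.03 ± 0.181 TPM in ACHN and HK2), MRPL38 (2.73 ± 0.0675 and 2.14 ± 0.162 TPM) and MRPS24 (0.706 ± 0.376 and 1.03 ± 0.634 TPM). Most neighbours in this order could not be ranked: the replicate values overlapped in 64 of the 76 neighbouring pairs in each line. The 3 low values carry a limit of the counting. Reads that overlap exons of 2 genes were not assigned, and 41.1% of the exon bases of MRPL38, 23.2% of MRPS24 (shared with the read-through gene URGCP-MRPS24) and 7.9% of MRPL46 lie in exons of another gene. In all, 39 of the 77 genes share some exon bases with another gene and 13 share over 20%.

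The control cells of the 2 lines differed in many of these genes, as they did in genes at large. In ACHN shNC 36 genes were higher and 21 lower than in HK2 shNC, where 38.6% and 38% of all genes tested were called in these directions at an adjusted p under 0.05 (edgeR's quasi-likelihood test, Benjamini-Hochberg adjustment over all genes, the rule used throughout). The median difference was 0.159 on the log2 scale against 0.016 over all genes. Once the trend with gene length was taken out it fell to 0.056, against -0.020 over all genes. MRPL12, homologue of the bacterial stalk protein that recruits translation factors, was at 9.22, 11.5 and 10.7 CPM (CPM being counts scaled by library size and TMM within a line) in ACHN and at 27.7, 22.4 and 26.3 CPM in HK2. Its log2 difference was -1.25 (SE 0.105, edgeR adjusted p = 1.8e-11). MRPL41, a mitochondria-specific large-subunit protein, went the other way by 0.76 (SE 0.0676, edgeR adjusted p = 6.91e-11). Cell line and any batch of library preparation cannot be told apart in this comparison.

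**Figure D1:**
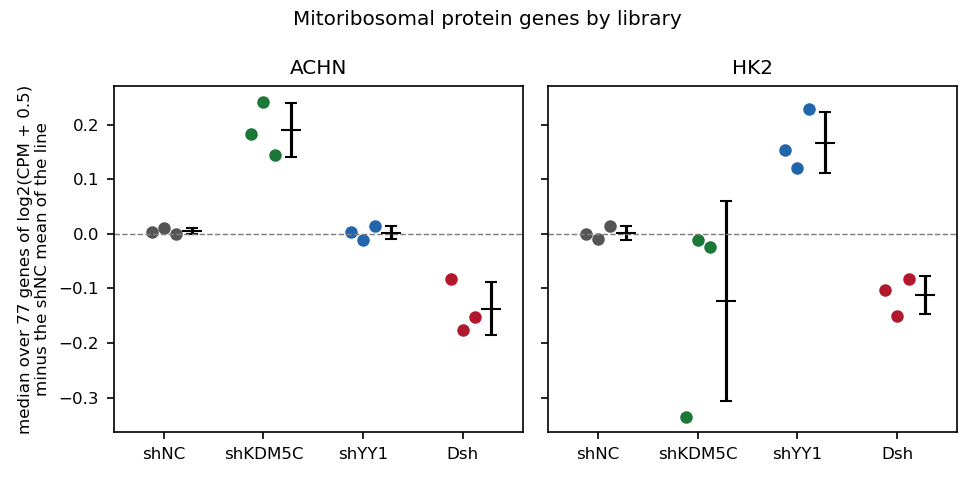
Median over the 77 genes of log2(CPM + 0.5) minus the gene's mean in the shNC libraries of the same line, 1 point per library, with the mean and SD of each group of 3 beside the points. The ACHN shKDM5C libraries lie at 0.145 to 0.242 and the HK2 shYY1 libraries at 0.120 to 0.228, the Dsh libraries of both lines lie below 0, and HK2 shKDM5C replicate 1 lies at -0.335, apart from the other 2 libraries of its group.

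Depletion of KDM5C in ACHN was followed by small and mostly upward changes. Of the 77 genes, 45 rose and 4 fell, against 28.9% and 27.7% of all genes tested, which corresponds to a median log2 fold change of 0.179 beside -0.007 over all genes. The 3 libraries had medians of 0.183, 0.242 and 0.145 above the control mean, and 65, 69 and 62 of the 77 genes stood above it, so each library shows the shift. Both classes took part, with 31 of 47 bacterial homologues and 14 of 29 mitochondria-specific genes higher. The called increases ran from 0.11 to 1.27 on the log2 scale and a single gene passed 1.

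MRPL23, a large-subunit protein at the exit of the nascent chain, moved farthest. It was at 16.3, 16.9 and 15.9 CPM in shNC and at 38.6, 44.5 and 35.9 CPM in shKDM5C, a log2 fold change of 1.27 (SE 0.0765, edgeR adjusted p = 2.94e-13). The 2 groups were far apart, and the gene (chr11:1947278-1984522 in GRCh38) shares 2.86% of its exon bases with the antisense gene MRPL23-AS1, whose reads an unstranded count cannot separate. MRPL21 (bacterial homologue, large subunit) rose from 15.2, 13 and 14.5 CPM to 23.3, 27.5 and 24.4 CPM (0.81, SE 0.0833, edgeR adjusted p = 7.46e-09). MRPL12 rose from the values given above to 15.4, 16.6 and 15.1 CPM (0.58, SE 0.0968, edgeR adjusted p = 1.49e-05). For MRPL12 this value rests on the part of the gene that can be counted, since 68.2% of its exon bases lie in exons of another gene. On the low side MRPL16 fell by 0.19 (SE 0.0606, edgeR adjusted p = 0.00948), from between 32.8 and 35.4 CPM to between 29.1 and 30.8 CPM. MRPL41 fell by 0.16 (SE 0.0588, edgeR adjusted p = 0.0194), from between 40.1 and 42.4 CPM to between 34.6 and 39.6 CPM. Neither decrease was called by DESeq2 (adjusted p = 0.0822 and 0.124) or with the length trend taken out (edgeR adjusted p = 0.0866 and 0.372), and the count of 4 lower genes became 0 under both settings. Over all genes the lower calls fell too, from 4481 to 3453 by DESeq2 and 3538 with the length trend taken out. Taking out length and GC trends together turned the MRPL41 value to 0.07 (edgeR adjusted p = 0.331). The MRPL16 call was also lost without ACHN shNC replicate 3 (-0.16, edgeR adjusted p = 0.0513). The MRPL41 call was lost in the fit with all 4 ACHN groups (edgeR adjusted p = 0.132) and without ACHN shNC replicate 2 (edgeR adjusted p = 0.0828), ACHN shKDM5C replicate 1 (edgeR adjusted p = 0.13) or ACHN shKDM5C replicate 3 (edgeR adjusted p = 0.0559). The count of 4 was 1 when ACHN shNC replicate 3, ACHN shKDM5C replicate 1 or ACHN shKDM5C replicate 3 was left out, and 2 without ACHN shNC replicate 1 or 2.

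Depletion of YY1 in ACHN moved fewer of the genes and in both directions. Here 15 rose and 11 fell, against 24.2% and 24.5% of all genes tested, and the median log2 fold change was -0.034 beside -0.007. Both counts lay under the background share of 77 genes in that direction. The 3 library medians were 0.004, -0.011 and 0.014, and those of the controls 0.004, 0.011 and -0.000. DESeq2 called 9 higher, the fit with all 4 ACHN groups called 7 lower, and scaling by total counts gave 11 higher and 14 lower. The share of all genes called in the fit with all 4 groups is not given here.

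The largest increases were in MRPL48, MRPL15 and MRPL13, proteins of the large subunit. MRPL48 was at 14.1, 16.5 and 17 CPM in shNC and at 24.2, 24.7 and 23.6 CPM in shYY1 (0.59, SE 0.0756, edgeR adjusted p = 4.89e-08). MRPL15 was at 51.2, 56.5 and 53.5 CPM and at 84.5, 76.3 and 82.8 CPM (0.58, SE 0.0475, edgeR adjusted p = 2.84e-12). These groups did not overlap, and MRPL13 rose by less (0.36, SE 0.0586, edgeR adjusted p = 3.79e-06). MRPL10, which holds the stalk on the large subunit, fell from 45.8, 45.1 and 42 CPM to 31.7, 31.6 and 34.8 CPM, the largest decrease (-0.46, SE 0.0575, edgeR adjusted p = 3.26e-08). MRPS6 (-0.32, SE 0.0727, edgeR adjusted p = 0.000446) and MRPL57 (-0.31, SE 0.0612, edgeR adjusted p = 6.47e-05) were the next lowest. MRPL10 and MRPL57 share no exon bases with another gene.

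**Figure D2:**
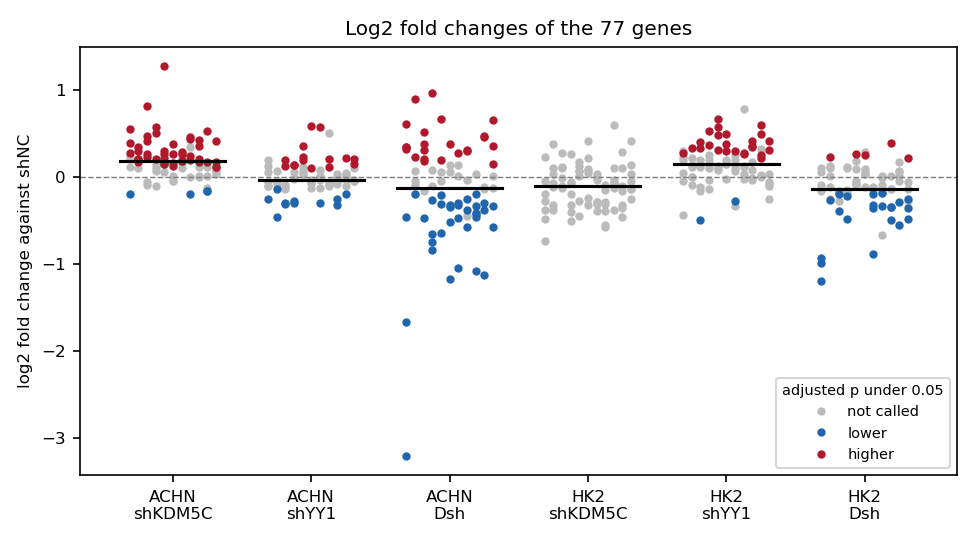
Log2 fold change against shNC of each of the 77 genes in the 6 comparisons, 1 point per gene, coloured by the call at an adjusted p under 0.05, with the median as a black bar. The ACHN Dsh column is the widest, from -3.20 to 0.97, and the HK2 shKDM5C column holds no called gene.

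The double knockdown in ACHN gave the widest spread of the 6 comparisons with shNC. In Dsh 34 genes fell and 23 rose, against 32% and 30.7% of all genes tested, so that the downward count lay above its background share and the upward count near it. The median log2 fold change was -0.134 beside -0.006, with a range from -3.20 to 0.97. The libraries had medians of -0.083, -0.177 and -0.152. With the trend with gene length taken out 27 genes fell and 27 rose and the median was 0.007. That setting moved all genes upward too, from 5264 lower and 5044 higher in the main fit to 4711 lower and 5789 higher. Their median became 0.058, so the median of the set still lay below that of all genes. The median of the set moved farther, from -0.134 to 0.007, than that of all genes, from -0.006 to 0.058. The gap between the set and all genes was therefore narrower than in the main fit, and part of the downward shift went with the length trend. The equal counts of the set alone do not show that the excess of decreases was lost, and how much of it remained was not tested. Of the genes, 6 had fallen to a log2 fold change of -1 or lower.

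The deepest decrease was in MRPS28, a small-subunit protein. It was at 11.7, 11.7 and 11.4 CPM in shNC, 13.6, 14 and 12.9 CPM in shKDM5C, 11.5, 13.4 and 11.9 CPM in shYY1, and 1.94, 0.819 and 1.05 CPM in Dsh. The Dsh libraries held 38, 15 and 26 counts of it where the shNC libraries held 227, 221 and 215, and the log2 fold change was -3.20 (SE 0.2, edgeR adjusted p = 8.97e-11). Of its exon bases 35.8% lie under another gene. MRPL33, a bacterial homologue of the large subunit, was at 65.8, 54.7 and 60.8 CPM in shNC and at 25.8, 17.4 and 14.5 CPM in Dsh (-1.67, SE 0.132, edgeR adjusted p = 2.61e-09). Neither single knockdown brought it near that level: the 6 libraries of shKDM5C and shYY1 lay between 47.1 and 60.9 CPM. MRPL33 shares 21.1% of its exon bases with BABAM2. MRPL24, a bacterial homologue with no shared exon bases, was at 75.2, 74.7 and 75.4 CPM in shNC and at 37.4, 29.4 and 33.3 CPM in Dsh (-1.17, SE 0.0698, edgeR adjusted p = 4.66e-11). Its 6 single-knockdown libraries lay between 73.2 and 82.8 CPM, at or near the control.

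Among the genes that rose in ACHN Dsh, MRPL12 led with 20.4, 16.9 and 23.8 CPM against 9.22, 11.5 and 10.7 CPM (0.97, SE 0.121, edgeR adjusted p = 1.22e-06). MRPS30, a mitochondria-specific protein of the large subunit in spite of its name, rose from 33, 31.6 and 32.6 CPM to 59.9, 62.1 and 60.1 CPM (0.90, SE 0.0588, edgeR adjusted p = 1.66e-10). MRPL23 rose again, by 0.67 (SE 0.0868, edgeR adjusted p = 1.9e-06). The 3 comparisons in ACHN share their control libraries, so counts across them are given as counts only. The same patterns were not counted over all genes, so whether these counts are unusual cannot be read from them. In each of the 3, 5 genes were called higher (MRPL4, MRPL23, MRPL35, MRPL42 and MRPS18B), 1 was called lower in each (MRPL33), 24 were called in opposite directions in different knockdowns and 7 were called in none.

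Whether the double knockdown departed from the sum of the single effects was tested in all 12 ACHN libraries as the interaction term (Dsh minus shKDM5C minus shYY1 plus shNC, on the log2 scale). It was below 0 for 43 genes and above 0 for 8, against 28.8% and 26.8% of all genes tested, with a median of -0.334 beside 0.012. The median was -0.238 under total-count scaling. YY1 RNA was less reduced in ACHN Dsh (70.1% of shNC) than in ACHN shYY1 (54.4%), and only the Dsh cells carry a second, GFP-labelled construct. These differences between the pools cannot be told apart from an interaction of the 2 depletions. MRPS28 had the lowest value (-3.49, SE 0.212, edgeR adjusted p = 3.98e-13). MRPL51 followed: its CPM was 83.3, 79.5 and 79.4 in shNC, 101.1, 115.7 and 96.1 in shKDM5C, 83.8, 78.6 and 83.9 in shYY1 and 43.4, 33.6 and 37.4 in Dsh, and the interaction was -1.47 (SE 0.0965, edgeR adjusted p = 1.77e-12). Dsh was thus the low group in a gene that the single knockdowns left at or above the control, though 31.3% of its exon bases lie under NCAPD2. At the other end MRPL45, which ties the particle to the inner membrane, was at 44, 44.4 and 43.8 CPM in shNC, 43.5, 43.2 and 40.6 CPM in shKDM5C, 35.7, 37.1 and 36.5 CPM in shYY1 and 62.4, 64.8 and 62.3 CPM in Dsh. It fell with shYY1 (-0.30, SE 0.0533, edgeR adjusted p = 1.9e-05), rose with Dsh (0.52, SE 0.0551, edgeR adjusted p = 1.54e-07) and had an interaction of 0.85 (SE 0.0738, edgeR adjusted p = 3.78e-10). MRPS30 was next at 0.73 (SE 0.0915, edgeR adjusted p = 1.95e-07).

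**Figure D3:**
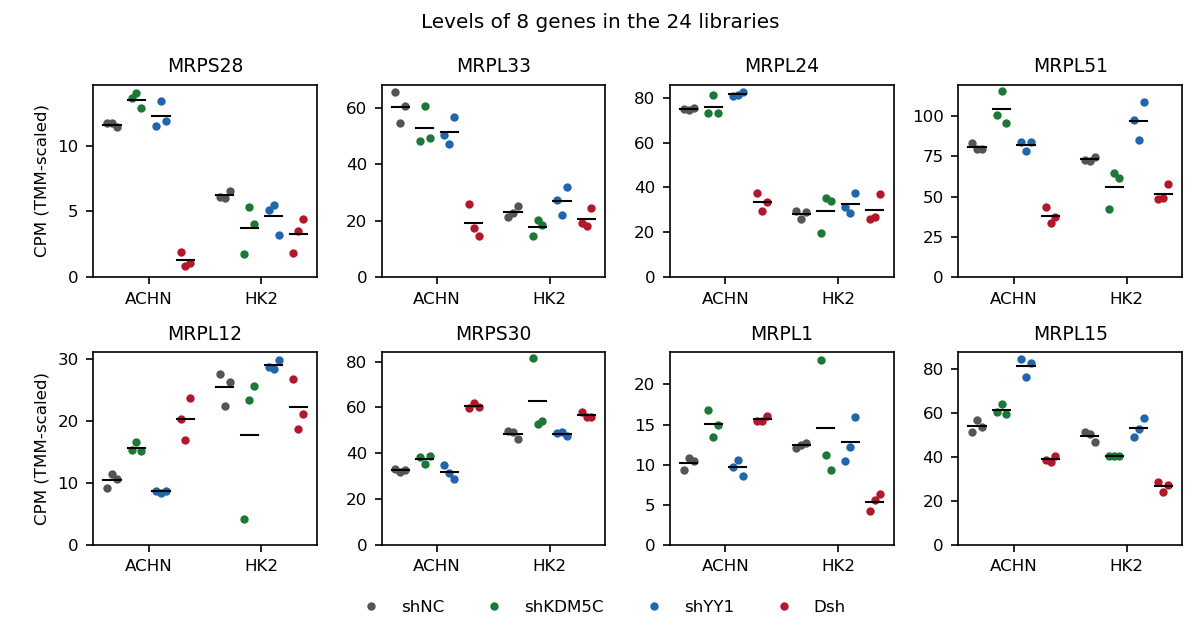
TMM-scaled CPM of 8 genes in each of the 24 libraries, grouped by cell line and coloured by knockdown, with the mean of each group as a black bar and every axis starting at 0. In ACHN the red Dsh points of MRPS28, MRPL33, MRPL24 and MRPL51 lie below all other ACHN points, those of MRPS30 lie above them, and 1 green HK2 shKDM5C point departs from its group in MRPL12, MRPS30 and MRPL1.

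In HK2 the depletion of KDM5C gave no called gene among the 77, where 0.656% and 0.668% of all genes tested were called lower and higher. At an unadjusted p under 0.05, 3 genes were lower and 1 higher by edgeR, and DESeq2 called 0 and gave 1 gene no adjusted p. The median log2 fold change was -0.102 beside 0.001, and the libraries had medians of -0.335, -0.011 and -0.024, so the first replicate alone lay away from the controls. Without it 4 genes fell and 5 rose, against 10.9% and 11.5% of all genes, and the median was -0.009. MRPL3, a bacterial homologue of the large subunit, was at 127.2, 130.9 and 122.3 CPM in shNC and at 253.7, 161.2 and 157.5 CPM in shKDM5C (0.60, SE 0.202, edgeR adjusted p = 0.245). Without the first replicate its value was smaller and passed the threshold (0.33, SE 0.0489, edgeR adjusted p = 1.59e-05). MRPL15 was at 51.1, 50.5 and 46.8 CPM in shNC and at 40.3, 40.4 and 40.5 CPM in shKDM5C, and its log2 fold change was -0.29 with the first replicate (SE 0.113, edgeR adjusted p = 0.3) and -0.29 without it (SE 0.0743, edgeR adjusted p = 0.00567).

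Depletion of YY1 in HK2 was followed by an upward shift of the set. Of the 77 genes 25 rose and 2 fell, against 14.3% and 14.7% of all genes tested, with a median log2 fold change of 0.150 beside 0.005. The libraries had medians of 0.153, 0.120 and 0.228, all above the controls. The cytosolic ribosomal protein genes rose more widely in the same libraries, 79 of the 84 tested with a median of 0.494. In the fit that holds all 4 HK2 groups only 3 of the 77 rose and 0 fell, and leaving HK2 shKDM5C replicate 1 out of that fit gave 26 and 2. The shares of all genes called in these fits are not given here, so the drop to 3 cannot be set beside a background.

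MRPS21, a small bacterial-type protein of the small subunit, rose from 29.2, 31.5 and 34.8 CPM to 53.9, 41.9 and 55.6 CPM (0.67, SE 0.0947, edgeR adjusted p = 1.15e-05). MRPL41 rose from 24.1, 25.1 and 26.1 CPM to 38.1, 33.7 and 42.3 CPM (0.60, SE 0.0907, edgeR adjusted p = 2.39e-05). MRPL23 rose from 19.5, 17.2 and 21 CPM to 26.6, 35.1 and 23.9 CPM (0.57, SE 0.12, edgeR adjusted p = 0.000969). No group overlapped its control in these 3 genes, though the shYY1 libraries differed more among themselves than the controls did. The 2 decreases were MRPL35, from 29.7, 28.8 and 30.5 CPM to 20.6, 20 and 22.5 CPM (-0.49, SE 0.0908, edgeR adjusted p = 0.000229), and MRPL49, from 65.6, 65.7 and 65 CPM to 53.8, 55.1 and 52.8 CPM (-0.28, SE 0.0615, edgeR adjusted p = 0.00138). Both are large-subunit proteins, and MRPL49 shares 12.2% of its exon bases with FAU and SYVN1.

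The double knockdown in HK2 gave mostly decreases. Here 22 genes fell and 5 rose, against 24.3% and 25.5% of all genes tested. The downward count lay near its background share and the upward count well under it. The median log2 fold change was -0.136 beside -0.003 and the libraries had medians of -0.102, -0.150 and -0.082. The fit with all 4 HK2 groups called 6 lower and 1 higher, and 21 and 5 without HK2 shKDM5C replicate 1.

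MRPL1, which forms the mobile side stalk of the large subunit, fell farthest. It was at 12.1, 12.5 and 12.7 CPM in shNC, 23.1, 11.2 and 9.28 CPM in shKDM5C, 10.5, 12.2 and 15.9 CPM in shYY1 and 4.17, 5.61 and 6.33 CPM in Dsh (-1.20, SE 0.156, edgeR adjusted p = 1.23e-07). MRPL54, a mitochondria-specific large-subunit protein, fell from 15, 15.1 and 16.3 CPM to 8.4, 6.73 and 8.11 CPM (-0.99, SE 0.132, edgeR adjusted p = 1.94e-07). MRPL15 fell from 51.1, 50.5 and 46.8 CPM to 28.5, 23.8 and 27.2 CPM (-0.89, SE 0.0795, edgeR adjusted p = 6.15e-11). None of the 3 shares exon bases with another gene. The increases were smaller: MRPS6 by 0.39 (SE 0.0925, edgeR adjusted p = 0.000733), MRPL37 by 0.27 (SE 0.0478, edgeR adjusted p = 2.48e-05) and MRPS10 by 0.25 (SE 0.057, edgeR adjusted p = 0.000493). In HK2 no gene was called in the same direction in all 3 knockdowns, 5 were called in opposite directions and 34 in none. Without HK2 shKDM5C replicate 1 these counts were 1 (MRPL37, higher in all 3), 6 and 33. As in ACHN, these patterns were not counted over all genes.

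The interaction in the 12 HK2 libraries was below 0 for 5 genes and above 0 for 0, against 4.4% and 5.21% of all genes tested, with a median of -0.211 beside -0.015. At an unadjusted p under 0.05 edgeR gave 14 below and 0 above, and DESeq2 called 6 below and 0 above at its adjusted p. Without HK2 shKDM5C replicate 1 it was below 0 for 31 genes and above 0 for 0, against 13.7% and 15% of all genes, with a median of -0.270. In HK2 too only the Dsh cells carry the second construct, which cannot be told apart from an interaction. The count of 5 was 12 with the length trend taken out, 19 with length and GC trends taken out and 3 with no filter on low counts. Over all genes the lower calls rose too, from 752 to 1245 with length out and 2236 with length and GC out. The count of 5 was 2 without HK2 shNC replicate 1 or 3, HK2 shYY1 replicate 3 or HK2 Dsh replicate 1 or 2, and 3 without HK2 shNC replicate 2 or HK2 shYY1 replicate 2. MRPL1 had the lowest value, -1.48 (SE 0.419, edgeR adjusted p = 0.0436), and -0.97 without the library that stands apart (SE 0.233, edgeR adjusted p = 0.00201). MRPL3 was at -0.92 (SE 0.223, edgeR adjusted p = 0.0214) and at -0.65 without it (SE 0.0877, edgeR adjusted p = 1.22e-06).

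**Figure D4:**
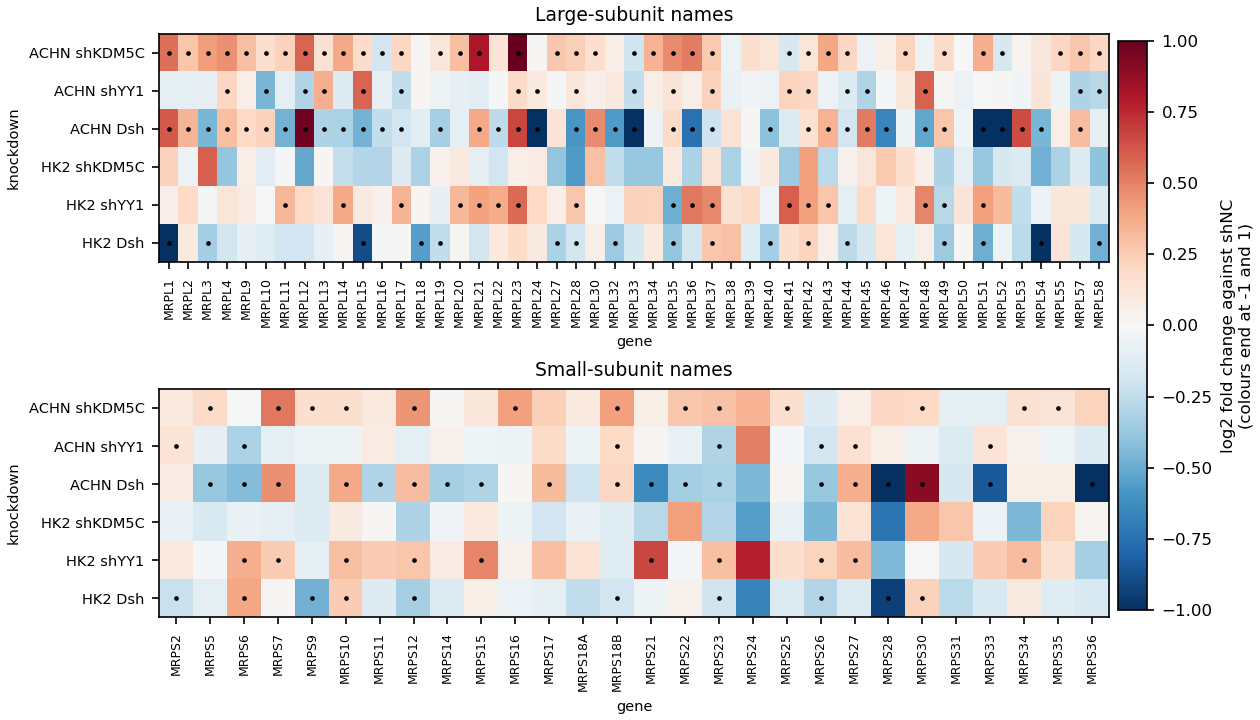
Log2 fold change against shNC of each of the 77 genes (columns, by subunit name) in the 6 knockdown comparisons (rows), with colours ending at -1 and 1 and a black dot where the adjusted p was under 0.05. The ACHN shKDM5C and HK2 shYY1 rows are mostly red, the Dsh rows mix both colours, and the HK2 shKDM5C row has no dot.

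The effects in the 2 lines were then compared directly, each in 12 libraries, as the knockdown effect in ACHN minus that in HK2. For shKDM5C it was above 0 for 7 genes and below 0 for 0, against 5.74% and 6.18% of all genes tested, with a median of 0.268 beside -0.022. At an unadjusted p under 0.05 edgeR gave 16 above and 0 below, and DESeq2 called 10 above and 0 below. Without HK2 shKDM5C replicate 1 it was above 0 for 28 genes and below 0 for 1, against 18.6% and 15.4%, with a median of 0.184. The count of 7 was 2 without ACHN shNC replicate 1, 3 without ACHN shKDM5C replicate 2, and 4 without ACHN shNC replicate 2, ACHN shNC replicate 3 or HK2 shNC replicate 3. MRPL21 differed by 0.92 (SE 0.189, edgeR adjusted p = 0.00873), or by 0.82 without the library that stands apart (SE 0.141, edgeR adjusted p = 2.41e-05). MRPL51 differed by 0.75 (SE 0.196, edgeR adjusted p = 0.0289), or by 0.58 without it (SE 0.0816, edgeR adjusted p = 1.22e-06).

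For shYY1 the effect was lower in ACHN for 25 genes and higher for 5, against 16.5% and 16.6% of all genes tested, with a median of -0.153 beside -0.006. MRPS6 differed by -0.67 (SE 0.131, edgeR adjusted p = 0.00018): in HK2 it was at 27.3, 38.6 and 32.6 CPM in shNC and at 41.8, 41.4 and 43.6 CPM in shYY1, while in ACHN it went from 21.3, 23.2 and 22.9 CPM to 19.6, 17.3 and 18 CPM. MRPS21 differed by -0.63 (SE 0.12, edgeR adjusted p = 0.000135). MRPL35 (0.64, SE 0.0966, edgeR adjusted p = 5.48e-06) and MRPL15 (0.49, SE 0.0881, edgeR adjusted p = 6.7e-05) had the higher effect in ACHN. With shYY1, 7 genes rose in both lines (MRPL23, MRPL28, MRPL37, MRPL41, MRPL42, MRPL48 and MRPS27), 0 fell in both, 4 fell in ACHN and rose in HK2, and 1 did the reverse. Of the 14665 genes tested in both lines 5.1% rose in both, 5.37% fell in both, and 3.74% and 4.33% were called in these opposite ways. The cytosolic ribosomal protein genes showed the same contrast more widely, with 76 of them lower and 0 higher in ACHN than in HK2 and a median of -0.465.

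For Dsh the effect was lower in ACHN for 19 genes and higher for 27, against 22.7% and 23.3% of all genes tested, with a median of -0.011 beside 0.013. The sign of that median depended on the setting: it was 0.097 with the length trend taken out, 0.055 with length and GC trends taken out and -0.060 with no filter, and ran from -0.048 to 0.045 when 1 library was left out. Over all genes the median was 0.065 with the length trend taken out and 0.065 with length and GC trends taken out. MRPS28 differed by -2.25 (SE 0.335, edgeR adjusted p = 2.17e-06), although it fell in HK2 too: it was at 6.13, 6 and 6.58 CPM in HK2 shNC and at 1.85, 3.48 and 4.43 CPM in HK2 Dsh (-0.93, SE 0.228, edgeR adjusted p = 0.00106). MRPL33 differed by -1.49 (SE 0.187, edgeR adjusted p = 1.33e-07), and in HK2 its Dsh libraries at 19.3, 18.2 and 24.4 CPM overlapped the controls at 21.4, 22.9 and 25.1 CPM. MRPL1 moved in opposite directions, from 9.32, 10.8 and 10.5 CPM to 15.4, 15.5 and 16.1 CPM in ACHN and down in HK2, and the difference was 1.83 (SE 0.184, edgeR adjusted p = 2.13e-09). MRPL12 differed by 1.18 (SE 0.18, edgeR adjusted p = 3.49e-06). With Dsh, 12 genes fell in both lines (MRPL3, MRPL15, MRPL19, MRPL28, MRPL32, MRPL40, MRPL44, MRPL51, MRPL54, MRPS23, MRPS26 and MRPS28) and 3 rose in both (MRPL42, MRPS10 and MRPS30). Another 7 were called in opposite directions, 5 of them up in ACHN and down in HK2 (MRPL1, MRPL35, MRPL49, MRPS12 and MRPS18B) and 2 the other way (MRPL37 and MRPS6). As shares of the 77 genes these are 15.6% lower in both, 3.9% higher in both, 6.49% and 2.6%, against 12.7%, 13%, 5.34% and 5.91% of the 14784 genes tested in both lines.

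**Figure D5:**
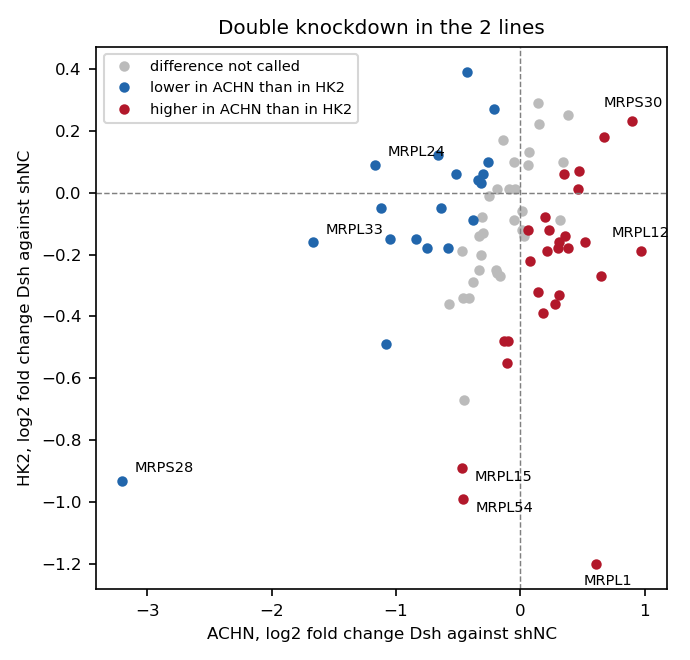
Log2 fold change of Dsh against shNC in ACHN (horizontal) and in HK2 (vertical), 1 point per gene, coloured by whether the difference between the lines was called. MRPS28 lies far to the left at -3.20 and -0.93, and MRPL1 lies at the lower right with the opposite sign in the 2 lines.

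Several proteins with a role of their own were followed through every knockdown. MRPS12, homologue of the protein at the decoding site, rose in ACHN with shKDM5C (0.44, SE 0.0671, edgeR adjusted p = 3.37e-06) and Dsh (0.31, SE 0.0741, edgeR adjusted p = 0.00125). In HK2 it rose with shYY1 (0.28, SE 0.0783, edgeR adjusted p = 0.00889) and fell with Dsh (-0.33, SE 0.0811, edgeR adjusted p = 0.00108). The HK2 shYY1 call was lost without HK2 shYY1 replicate 1 (0.23, edgeR adjusted p = 0.0506), and 16.3% of its exon bases overlap SARS2, its neighbour on the other strand. MRPS18B and MRPS18A descend from 1 bacterial family and sit in different subunits. MRPS18B rose in ACHN with shKDM5C (0.41, SE 0.0477, edgeR adjusted p = 5.45e-08), shYY1 (0.20, SE 0.0485, edgeR adjusted p = 0.000895) and Dsh (0.21, SE 0.0587, edgeR adjusted p = 0.00414), and fell in HK2 Dsh (-0.19, SE 0.0631, edgeR adjusted p = 0.015). That last call was lost without HK2 shNC replicate 3 (-0.16, edgeR adjusted p = 0.0765) or HK2 Dsh replicate 3 (-0.15, edgeR adjusted p = 0.073). MRPS18A was not called in any of the 6 comparisons, with log2 fold changes between -0.25 and 0.14, nor in HK2 shKDM5C without the library that stands apart (0.07, edgeR adjusted p = 0.754). MRPL41 had opposite calls in ACHN, lower with shKDM5C as given above and higher with shYY1 (0.22, SE 0.0516, edgeR adjusted p = 0.000477), the latter not called with length and GC trends taken out (0.08, edgeR adjusted p = 0.206). MRPL12 fell with shYY1 in ACHN (-0.30, SE 0.107, edgeR adjusted p = 0.0212), a call that was lost by DESeq2 (-0.29, adjusted p = 0.135), in the fit with all 4 groups (edgeR adjusted p = 0.0706), and without ACHN shNC replicate 2 (-0.23, edgeR adjusted p = 0.132), ACHN shNC replicate 3 (-0.28, edgeR adjusted p = 0.0639) or ACHN shYY1 replicate 2 (-0.28, edgeR adjusted p = 0.0592). MRPS36, whose product belongs to another complex, fell in ACHN Dsh from 9.73, 11.4 and 11 CPM to 5.31, 6.17 and 4.2 CPM (-1.05, SE 0.143, edgeR adjusted p = 3.46e-06), and in HK2 Dsh it was at 7.39, 11.3 and 11 CPM against 10.4, 12.5 and 10.4 CPM (-0.15, SE 0.152, edgeR adjusted p = 0.431).

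Other genes of mitochondrial translation were counted in the same way. The list of 27 assembly factors also holds METTL5, a methyltransferase of cytosolic rRNA. METTL5 was called lower in ACHN shYY1 (-0.20) and ACHN Dsh (-0.38) and higher in HK2 Dsh (0.28), and it is part of the counts given. With shKDM5C in ACHN, where 28.9% of all genes were called higher and 27.7% lower, 10 of the 15 translation factors rose and 1 fell, 12 of the 27 assembly factors rose and 4 fell, and 9 of the 17 mitochondrial aminoacyl-tRNA synthetases rose and 2 fell. Among the largest were the synthetase MARS2 (0.71, SE 0.0773, edgeR adjusted p = 1.8e-08), the rRNA helicase DDX28 (0.51, SE 0.0873, edgeR adjusted p = 2.14e-05) and TFAM, which packages the mitochondrial genome (0.38, SE 0.0427, edgeR adjusted p = 2.86e-08). With shYY1 in ACHN, where 24.5% of all genes were called lower and 24.2% higher, 4 translation factors fell and 1 rose, 9 assembly factors fell and 6 rose, and 8 synthetases fell and 1 rose. TACO1, a translational activator, fell by 0.55 (SE 0.0716, edgeR adjusted p = 6.42e-08) and the assembly GTPase NOA1 fell by 0.60 (SE 0.0684, edgeR adjusted p = 5.09e-09).

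In ACHN Dsh the mitoribosomal protein gene MRPS18C, which the naming rule leaves out because its symbol ends in C, fell to 2.04, 2.57 and 1.17 CPM from 9.68, 9.82 and 10.6 CPM (-2.42, SE 0.196, edgeR adjusted p = 3.72e-09). The other listed mitoribosomal protein genes outside the rule did not fall with it. PTCD3 rose (0.27, SE 0.0527, edgeR adjusted p = 0.000209), and DAP3 (0.01), CHCHD1 (-0.11), AURKAIP1 (0.17) and GADD45GIP1 (0.16) were not called. Of the assembly factors 9 rose and 9 fell in ACHN Dsh, of the translation factors 6 rose and 3 fell, and of the synthetases 4 rose and 5 fell. Of all genes tested 30.7% were called higher and 32% lower in that comparison. DDX28 rose by 0.92 (SE 0.0885, edgeR adjusted p = 3.96e-08) and MARS2 by 0.76 (SE 0.0989, edgeR adjusted p = 1.91e-06), while SARS2 fell by 1.14 (SE 0.226, edgeR adjusted p = 0.000221). The assembly factor MALSU1 fell by 1.13 (SE 0.0926, edgeR adjusted p = 4.48e-09) and SLIRP, a partner of the mitochondrial mRNA chaperone LRPPRC, fell by 1.65 (SE 0.211, edgeR adjusted p = 1.6e-06). PPARGC1A, a coactivator of mitochondrial biogenesis, rose in ACHN Dsh (1.51, SE 0.214, edgeR adjusted p = 5.6e-06) and fell in HK2 Dsh (-0.51, SE 0.0733, edgeR adjusted p = 6.42e-07). The rise began from a low level, since its log2 difference between ACHN and HK2 shNC was -4.67. PPARGC1B, of the same list, went the other way in both lines. It was at -0.82 in ACHN Dsh (edgeR adjusted p = 9.9e-06) and at 0.55 in HK2 Dsh (edgeR adjusted p = 0.00895). In HK2 Dsh, where 24.3% of all genes were called lower and 25.5% higher, 12 of the 27 assembly factors fell and 3 rose. There 6 synthetases fell and 3 rose, and TFAM fell by 0.94 (SE 0.058, edgeR adjusted p = 1.23e-14). In HK2 shYY1, where the ribosomal protein genes of both kinds rose, 1 assembly factor rose and 4 fell, and 4 synthetases rose and 2 fell. Of all genes 14.3% were called higher and 14.7% lower in that comparison. The cytosolic ribosomal protein genes in ACHN Dsh fell in 47 cases and rose in 18 of the 84 tested, with a median of -0.263. The 15 rRNA and mRNA genes of the mitochondrial genome fell in 10 cases and rose in 1 with shKDM5C in ACHN, 5 and 1 with shYY1, and 8 and 3 with Dsh. In HK2 they fell in 5 cases and rose in 2 with shYY1, and 8 and 2 with Dsh. The lowest was MT-ATP8, which overlaps MT-ATP6, at -3.76 in ACHN shKDM5C and -5.40 in ACHN Dsh. MT-ATP6 itself was at 0.17 and 0.08 in these comparisons, and in ACHN Dsh MT-ND4L was at -2.29 while MT-ND4 was at -0.00. Whether overlap or short length of such genes affected their counts was not tested, so these values may not stand for the level of a transcript. Of the 18 tested regulators of mitochondrial gene expression, a list that holds KDM5C and YY1, 10 rose and 2 fell in ACHN shKDM5C, 6 and 4 in ACHN shYY1, 9 and 4 in ACHN Dsh, 4 and 3 in HK2 shYY1, and 3 and 8 in HK2 Dsh. Of all genes 28.9% were called higher and 27.7% lower in ACHN shKDM5C, and 24.2% and 24.5% in ACHN shYY1. The shares of the other comparisons are given above.

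The responses of the genes were set beside the YY1 letters shown above. With shYY1 in ACHN the median log2 fold change was -0.015 for the 25 genes with the motif and -0.045 for the 43 with a window but no motif, and in HK2 it was 0.194 and 0.170. With Dsh the medians were -0.046 and -0.194 in ACHN and -0.094 and -0.136 in HK2. Of the 25 genes with the motif 8 fell and 10 rose in ACHN Dsh, and of the 43 without it 22 fell and 8 rose. Of all genes tested 32% were called lower and 30.7% higher there. Of the sequences printed, those of MRPS30, MRPS10, MRPL45, MRPS18B and MRPL1 belong to genes that rose in ACHN Dsh, that of MRPL51 belongs to one that fell, with the same 8 capitals as MRPS30, and MRPS18A was not called. MRPL37 and MRPL46 also carry the letters and fell in ACHN Dsh. These medians are descriptions, no test was run on them, and binding of YY1 at these genes was not analysed here.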

How the data were processed

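RNA-seq read counts of 24 libraries, 3 in each of 8 groups given by the labels, were analysed. Per the labels the authors aligned reads to hg38 with HISAT2 2.0.5 and counted them per gene with featureCounts 1.5.0-p3. The deposited file headers name featureCounts 2.0.1 with paired-end counting, Ensembl release 84 and no strand option, so the deposited raw counts leave out reads that overlap 2 genes. The authors' own test (DESeq2) was not reused. Symbols came from a gene name table, gene types from GENCODE 44 and promoter windows from RefSeq. The 77 genes, the gene lists and the named genes were chosen with earlier results of these data known. edgeR 4.0.16 in R 4.3.3 (filterByExpr, TMM, glmQLFit, glmQLFTest, Benjamini-Hochberg adjustment over all genes, threshold 0.05) was fitted to the 2 groups compared, or to 12 libraries for interactions and differences between lines. Standard errors were taken from the log2 fold change and the square root of F. CPM was scaled by TMM within a line, TPM used the exon length in the files, and library medians used log2(CPM + 0.5). Alternatives were DESeq2 1.42.0, other size factors, other filters, length and GC trends taken out (18668 of 18942 tested genes had a GC content), a replicate block, all 4 groups of a line in the fit, and each library left out. The script was tested on simulated counts with 200 changed genes. Named genes were the 3 highest and 3 lowest called genes of each comparison with shNC with no overlap of replicates and at least 10 CPM, the 2 highest and lowest of each interaction or difference, the 3 highest and lowest levels, and 7 genes by role. Genes of other lists were named from the 2 largest called changes of their list. Exceptions were PPARGC1A and TFAM in HK2 Dsh, PPARGC1B, METTL5, MT-ATP6, MT-ND4, MT-ND4L, and DAP3, CHCHD1, AURKAIP1 and GADD45GIP1 in ACHN Dsh. These as well as MRPL3 and MRPL15 in HK2 shKDM5C were chosen after their values were seen. Windows are printed for some of the named genes with the motif, and 1 sequence is not reported here.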

Additional observations from a re-analysis of the deposited data

Results flagged for a closer look

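The knockdown effects of the 2 lines differed by a direct test of the difference. For shKDM5C 7 of the 77 genes had the higher effect in ACHN, led by MRPL21 (0.92) and MRPL51 (0.75), where 5.74% of all genes were called. That count was 28 without HK2 shKDM5C replicate 1 (MRPL21 0.82, MRPL51 0.58), 2 without ACHN shNC replicate 1 and 1 with a replicate block. For shYY1 25 genes had the lower effect in ACHN, with MRPS6 (-0.67) and MRPS21 (-0.63) lowest, and 5 the higher, with MRPL35 (0.64) and MRPL15 (0.49) highest, against 16.5% and 16.6% of all genes. For Dsh 19 genes had the lower effect in ACHN, with MRPS28 (-2.25) and MRPL33 (-1.49) lowest, and 27 the higher, with MRPL1 (1.83) and MRPL12 (1.18) highest, against 22.7% and 23.3% of all genes. Each value is a difference of log2 fold changes, ACHN minus HK2, with an adjusted p under 0.05 by edgeR.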

How the results depend on the processing

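All values count the 77 genes called lower or higher, or are their median log2 value. DESeq2 gave 0 lower in ACHN shKDM5C, 9 higher in ACHN shYY1 and a shNC median of 0.170. Total-count scaling, which shifted the median of all genes by at most 0.096, gave medians of 0.135 (ACHN shKDM5C), -0.050 (ACHN shYY1), -0.173 (HK2 Dsh), -0.238 (ACHN interaction) and 0.102 (shNC). No filter gave 3 lower in the HK2 interaction and medians of -0.060 (Dsh difference) and 0.179 (shNC). With the length trend out ACHN shKDM5C had 0 lower and the HK2 interaction 12 lower, with medians of 0.270 (ACHN shKDM5C), 0.000 (ACHN shYY1), 0.007 (ACHN Dsh), 0.033 (HK2 shKDM5C), -0.333 (HK2 interaction), -0.112 (shYY1 difference), 0.097 (Dsh difference) and 0.056 (shNC). This setting moved all genes too, to medians of 0.079 (ACHN shKDM5C), 0.043 (ACHN shYY1), 0.058 (ACHN Dsh), 0.051 (HK2 shKDM5C), -0.100 (HK2 interaction), -0.003 (shYY1 difference), 0.065 (Dsh difference) and -0.020 (shNC). All genes therefore moved in the same direction as the 77 genes. In ACHN Dsh, HK2 shKDM5C and shNC the median of the 77 genes moved farther than that of all genes, and in ACHN shYY1 it moved less. In the HK2 interaction 752 of all genes were lower in the main fit, 1245 with length out and 2236 with length and GC out. With length and GC trends out, chosen after seeing the data, lower counts were 2 (ACHN shKDM5C), 5 (HK2 shYY1) and 19 (HK2 interaction), the shKDM5C difference had 23 higher, medians were 0.243 (ACHN shKDM5C), 0.040 (ACHN shYY1), -0.028 (ACHN Dsh), -0.117 (shYY1 difference), 0.055 (Dsh difference) and 0.043 (shNC), and MRPL41 in ACHN shKDM5C turned to 0.07. All 4 groups in the fit gave 1 lower in ACHN shKDM5C, 7 lower and a median of -0.014 in ACHN shYY1, 1 higher in HK2 shKDM5C, 0 lower and 3 higher in HK2 shYY1, and 6 lower and 1 higher in HK2 Dsh. Without HK2 shKDM5C replicate 1, also chosen after seeing the data, that fit gave 2 lower and 2 higher in HK2 shKDM5C. For the fits with all 4 groups the shares of all genes called are not given here. The cause of these moves was not tested.

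Same-numbered libraries did not deviate together (correlations from -0.0399 to 0.0416 in ACHN and from -0.0894 to 0.0376 in HK2), so the numbers do not pair them. The replicate block left 1 higher gene in the shKDM5C difference and moved no other count by over 1.5 times.

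Leaving out each library gave these ranges of lower calls, higher calls and median: ACHN shKDM5C 1 to 5, 41 to 45 and 0.160 to 0.204, ACHN shYY1 10 to 11, 10 to 13 and -0.033 to -0.015, ACHN Dsh 32 to 34, 21 to 24 and -0.143 to -0.096, HK2 shKDM5C 0 to 4, 0 to 5 and -0.179 to -0.009, HK2 shYY1 2 to 3, 22 to 29 and 0.124 to 0.194, HK2 Dsh 18 to 25, 4 to 7 and -0.132 to -0.089, ACHN interaction 38 to 44, 6 to 8 and -0.363 to -0.275, HK2 interaction 2 to 31, 0 to 0 and -0.270 to -0.111, shKDM5C difference 0 to 1, 2 to 28 and 0.184 to 0.360, shYY1 difference 23 to 27, 4 to 6 and -0.180 to -0.113, Dsh difference 16 to 20, 21 to 26 and -0.048 to 0.045, and shNC 18 to 22, 34 to 37 and 0.127 to 0.173. Of 65 results for named genes, 42 kept direction and side of the threshold under every alternative run. Genes under 100 mean counts (MRPS24, MRPL38 and MRPL53) are the least precise.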

Other observations

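The genes beside the members with the deepest decreases were read out as well, a comparison chosen after the values were seen. In ACHN Dsh, where MRPL24 fell by 1.17 on the log2 scale, its direct neighbours METTL25B and HDGF were at -0.02 (edgeR adjusted p = 0.845) and -0.35 (edgeR adjusted p = 1.77e-06), while CRABP2, 3 tested genes away, was at -2.11 (edgeR adjusted p = 8.97e-13). Beside MRPL33, LINC01460 was at -0.77 (edgeR adjusted p = 0.123), RBKS was at 0.14 (edgeR adjusted p = 0.268) and BABAM2, which shares exon bases with it, at 0.28 (edgeR adjusted p = 0.000407). The direct neighbours of MRPS28 were LINC02605 at 1.85 (edgeR adjusted p = 0.000728) and ENSG00000272518 at -1.59 (edgeR adjusted p = 0.00217), the latter in the direction of MRPS28, and the genes beyond them were IL7 at 1.09 (edgeR adjusted p = 2.11e-06) and TPD52 at -0.41 (edgeR adjusted p = 1.09e-05). In HK2 Dsh the neighbours of MRPL1 were CNOT6L at 0.31 (edgeR adjusted p = 0.00181) and FRAS1 at -0.83 (edgeR adjusted p = 1.15e-14).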
